A study of Mus musculus with 12 samples.

Results

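Collagens are among the load-bearing proteins of the aortic wall, and 28 of the 21954 genes in the deposited expression table encode collagen alpha chains. They were taken as every row whose gene name has the form Col, a number, a and a number, and were grouped by the class of collagen the chain belongs to. There were 8 fibrillar chains, 6 basement membrane chains, 5 chains of the FACIT class (fibril-associated collagens with interrupted helices), 2 network chains, 5 beaded filament chains and 2 multiplexins. A list of 45 mouse chain genes was drawn up by class, and the other 17 on it were not analysed here. RNA was sequenced from the proximal ascending aorta, next to the heart, and from the distal ascending aorta of 6 mice aged 2 months. The groups were Notch1+/- proximal, Notch1+/- distal, wildtype proximal and wildtype distal tissue, with 3 libraries each and 1 library of each location per mouse. The Notch1+/- mice carried a single working copy of Notch1, the receptor gene, on the strain written Notch1.129S6+/-, and their wildtype littermates carried both copies. The study asked why these Notch1+/- mice dilate at the aortic root.

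Alpha chains wind together into a rope-like helix, and which chains pair decides the kind of collagen. Fibrillar collagens of types I, III and V form the tensile fibres of the adventitia and media. Type IV collagen is the sheet-forming scaffold of the basement membranes around smooth muscle cells and under the endothelium. FACIT collagens sit on the surface of fibrils, type VI collagen forms beaded filaments between fibrils and cells, type VIII collagen forms networks in vessel walls, and the multiplexins type XV and type XVIII lie in and beside basement membranes.

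The start regions of 5 chain genes are shown, chosen by the place of these genes in the results. Col8a1 and Col15a1 differed between locations, and Col1a2 had the highest level. The windows of Col4a2 and Col4a4 span the head-to-head starts that these genes share with Col4a1 and Col4a3. Each is 250 bases before to 50 bases after a RefSeq transcript start (GRCm38.p6, the assembly that mm10 also names), written 5′ to 3′ on the strand of the gene. Capitals mark CCAAT (the CCAAT box), TATAAA (the TATA box) and GGGCGG (the GC box), each searched on both strands. The windows are chr16:57754688-57754987 on the minus strand for Col8a1, chr4:47207762-47208061 on the plus strand for Col15a1, chr6:4505368-4505667 on the plus strand for Col1a2, chr8:11312555-11312854 on the plus strand for Col4a2 and chr1:82586800-82587099 on the minus strand for Col4a4.
Col8a1: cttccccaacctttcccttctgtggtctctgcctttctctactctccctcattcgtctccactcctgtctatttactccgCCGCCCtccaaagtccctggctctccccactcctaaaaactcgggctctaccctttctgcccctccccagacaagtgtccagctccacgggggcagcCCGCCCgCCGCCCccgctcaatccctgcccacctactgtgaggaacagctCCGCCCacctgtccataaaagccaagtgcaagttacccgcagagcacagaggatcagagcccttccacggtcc
Col15a1: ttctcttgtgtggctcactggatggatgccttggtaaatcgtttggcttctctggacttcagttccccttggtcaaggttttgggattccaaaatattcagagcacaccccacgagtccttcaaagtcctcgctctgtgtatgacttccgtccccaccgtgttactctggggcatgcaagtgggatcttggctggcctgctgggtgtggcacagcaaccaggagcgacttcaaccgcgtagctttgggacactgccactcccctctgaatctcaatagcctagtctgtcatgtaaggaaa
Col1a2: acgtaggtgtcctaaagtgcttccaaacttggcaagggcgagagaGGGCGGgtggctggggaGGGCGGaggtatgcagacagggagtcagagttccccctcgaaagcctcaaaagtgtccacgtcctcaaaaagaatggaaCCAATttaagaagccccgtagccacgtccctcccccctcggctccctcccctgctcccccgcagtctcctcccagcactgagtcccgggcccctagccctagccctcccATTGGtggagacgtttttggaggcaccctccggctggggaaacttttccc
Col4a2: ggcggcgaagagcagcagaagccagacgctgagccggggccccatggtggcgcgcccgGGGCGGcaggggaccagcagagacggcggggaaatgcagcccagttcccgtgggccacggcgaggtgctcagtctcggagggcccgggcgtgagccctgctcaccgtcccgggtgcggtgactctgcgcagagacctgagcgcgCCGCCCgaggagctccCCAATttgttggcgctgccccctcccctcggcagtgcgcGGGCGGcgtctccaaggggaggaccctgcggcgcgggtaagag
Col4a4: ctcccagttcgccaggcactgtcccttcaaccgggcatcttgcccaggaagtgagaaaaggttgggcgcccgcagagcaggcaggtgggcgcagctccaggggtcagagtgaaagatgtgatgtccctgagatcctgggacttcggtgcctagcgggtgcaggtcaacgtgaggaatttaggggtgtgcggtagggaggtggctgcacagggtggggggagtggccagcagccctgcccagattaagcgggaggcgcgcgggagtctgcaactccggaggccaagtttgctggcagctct

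The Col8a1 window held the GC box 4 times, and the Col15a1 and Col4a4 windows held none of the 3 motifs. The Col15a1 window ends before chr4:47208161, where the gene bounds given below begin. The Col1a2 window begins inside its gene, whose bounds begin at chr6:4504814. RefSeq windows were at hand for 23 of the 28 chain genes, 25 windows in all. The GC box was present in 16 of these 25 windows (64%), against 35.7% of all 32851 mouse windows of the same length. The collagen windows averaged 59.7% G and C and all windows 53.8%. CCAAT was present in 8 of the 25 (32%, against 37.4% of all windows) and TATAAA in 2 (8%, against 13.6%). GTGGGAA, the core letters bound by Rbpj, the DNA-binding partner of Notch, were present in 2 (8%, against 6.38%), those of Col10a1 and Col4a5. These are matches of letters, and no binding was measured.

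Libraries held 26518332 to 36742096 reads. Levels are given as RPKM, reads scaled to the length of the gene and the size of the library. Any value below a library's detection threshold had been replaced by 0.158 RPKM in the deposited table. That threshold, named for 10 reads, was the same RPKM value for every gene of a library, at 0.136 to 0.189 RPKM. In a long gene it stands for more reads: 0.179 RPKM of Col6a5 in wildtype distal 2 rested on 31 reads. Mitochondrially encoded genes took 24.1% to 43.7% of the summed RPKM. Defining smooth muscle markers were all present, with 3129 to 4938 summed RPKM in proximal and 3147 to 5632 in distal libraries. Notch1 itself averaged 1.83 ± 0.32 RPKM in libraries labelled Notch1+/- and 1.29 ± 0.24 in wildtype libraries of proximal tissue, and 1.52 ± 0.34 against 0.877 ± 0.30 in distal tissue (SD, n = 3 each). It was therefore not lower in the libraries labelled Notch1+/- (limma, adjusted p = 0.999 and 1), and the labels do not say which stretch of the gene is lost, so this value checks no label. In such bulk tissue, fewer cells of a type and less RNA per cell cannot be told apart.

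The aorta expressed collagen chains at widely spread levels, as the plot of RPKM by library shows. Over the 12 libraries, the type I chains Col1a2 and Col1a1 were highest, at 126 ± 33 and 122 ± 36 RPKM (SD, n = 12). The type III chain Col3a1 followed at 88.6 RPKM, then the type IV chains Col4a2 at 53.4 and Col4a1 at 41.9, and the type XVIII chain Col18a1 at 38.2 RPKM. The lowest were Col19a1, Col6a5, Col11a1 and Col5a3, at 0.441, 0.417, 0.388 and 0.284 RPKM, and these 4 did not reach 1 RPKM in at least 3 libraries. The tests therefore cover 24 chains among 17297 genes. Among values that were not replaced, reads behind a chain ran between 14 in 1 library for Col10a1 and 41812 in 1 library for Col1a2. The low chains therefore carry the most counting error.

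**Figure D1:**
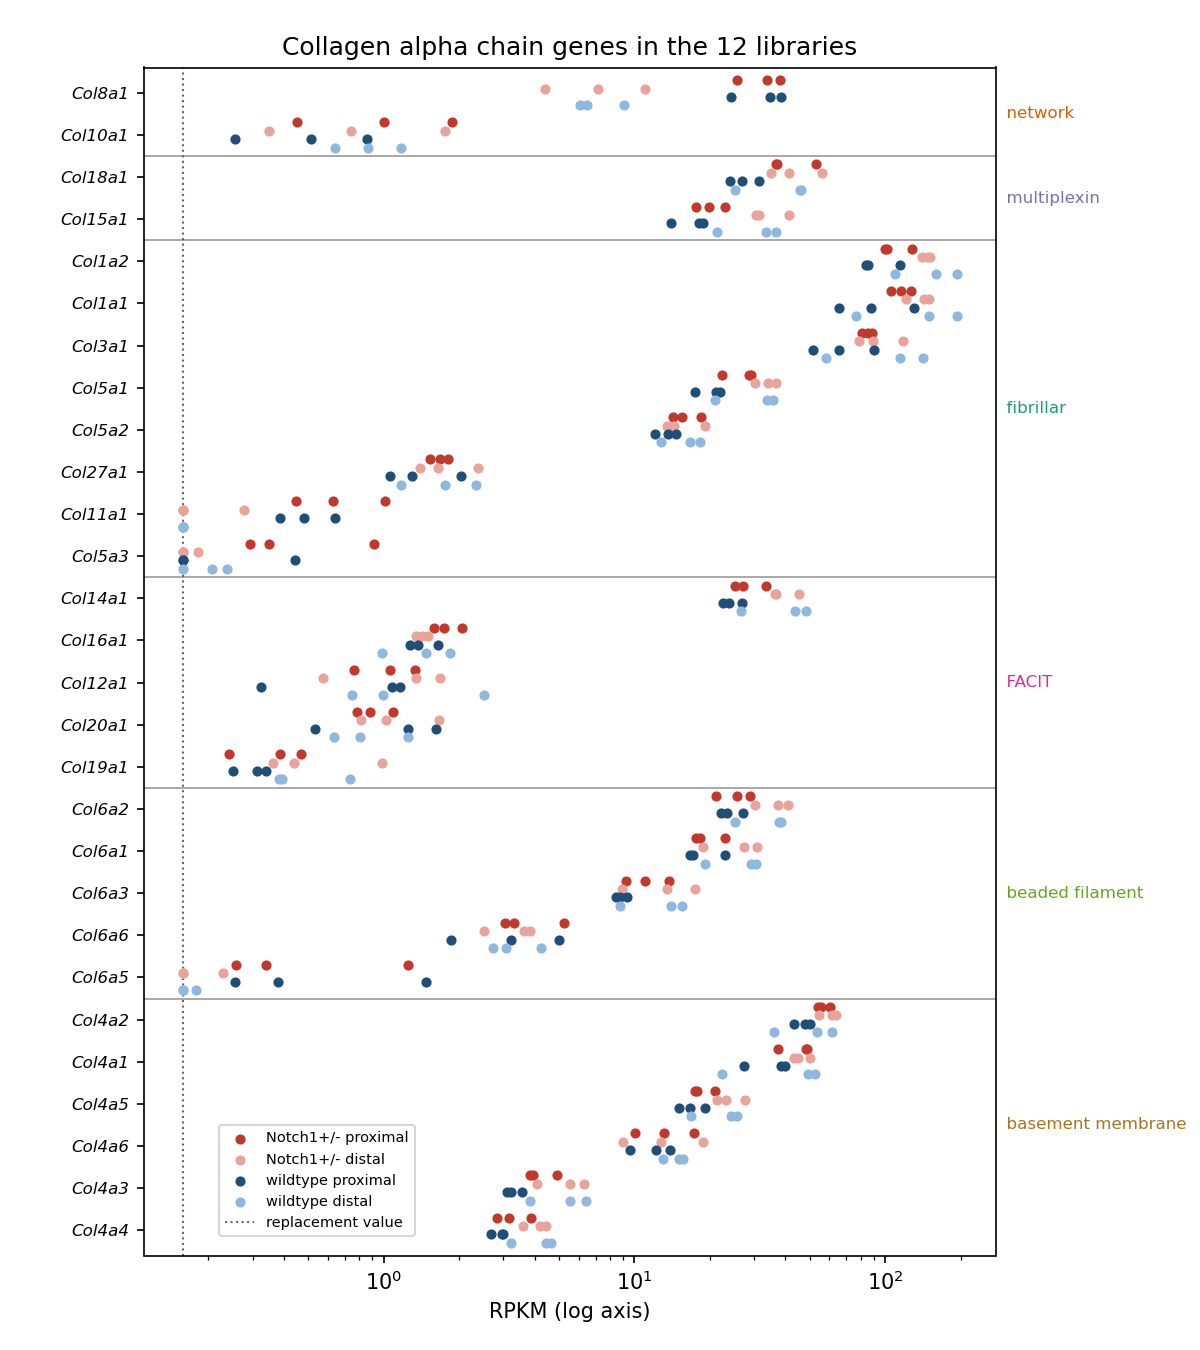
RPKM (log axis) of each of the 28 collagen chains in the 12 libraries, grouped by class, with 1 point a library and the 4 groups in colour. The dotted line is the replacement value of 0.158 RPKM. Col8a1 is the highly expressed chain whose proximal points (24.4 to 38.3 RPKM) lie clear of its distal points (4.39 to 11.0 RPKM).

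Proximal tissue had more Col8a1 and less Col15a1 than distal tissue, and most other chains sat somewhat lower in proximal tissue without passing the test. The comparison used limma on log2(RPKM + 0.5), averaged over genotypes, with p-values adjusted by the Benjamini-Hochberg method over all 17297 genes. Of the 24 chains tested, 2 passed an adjusted p of 0.05, 1 in each direction, against 1.5% of all genes tested (0.775% higher and 0.728% lower in proximal tissue). Fitted values were lower in proximal tissue for 21 of the 24 chains, against 58.5% of all genes. Chains too low for the test are outside this count and are given below. The median log2 difference of the chains was -0.30, against -0.05 for all genes, and 20 or 21 chains were fitted lower under each of 3 other scalings. In 10 of the 24 chains the distal sample was the higher of the pair in all 6 mice, which held for 5.65% of all genes: Col1a1, Col1a2, Col5a1, Col14a1, Col15a1, Col6a1, Col6a2, Col4a3, Col4a4 and Col4a5. An unadjusted p under 0.05 was reached by 10 chains, against 11.1% of all genes.

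**Figure D2:**
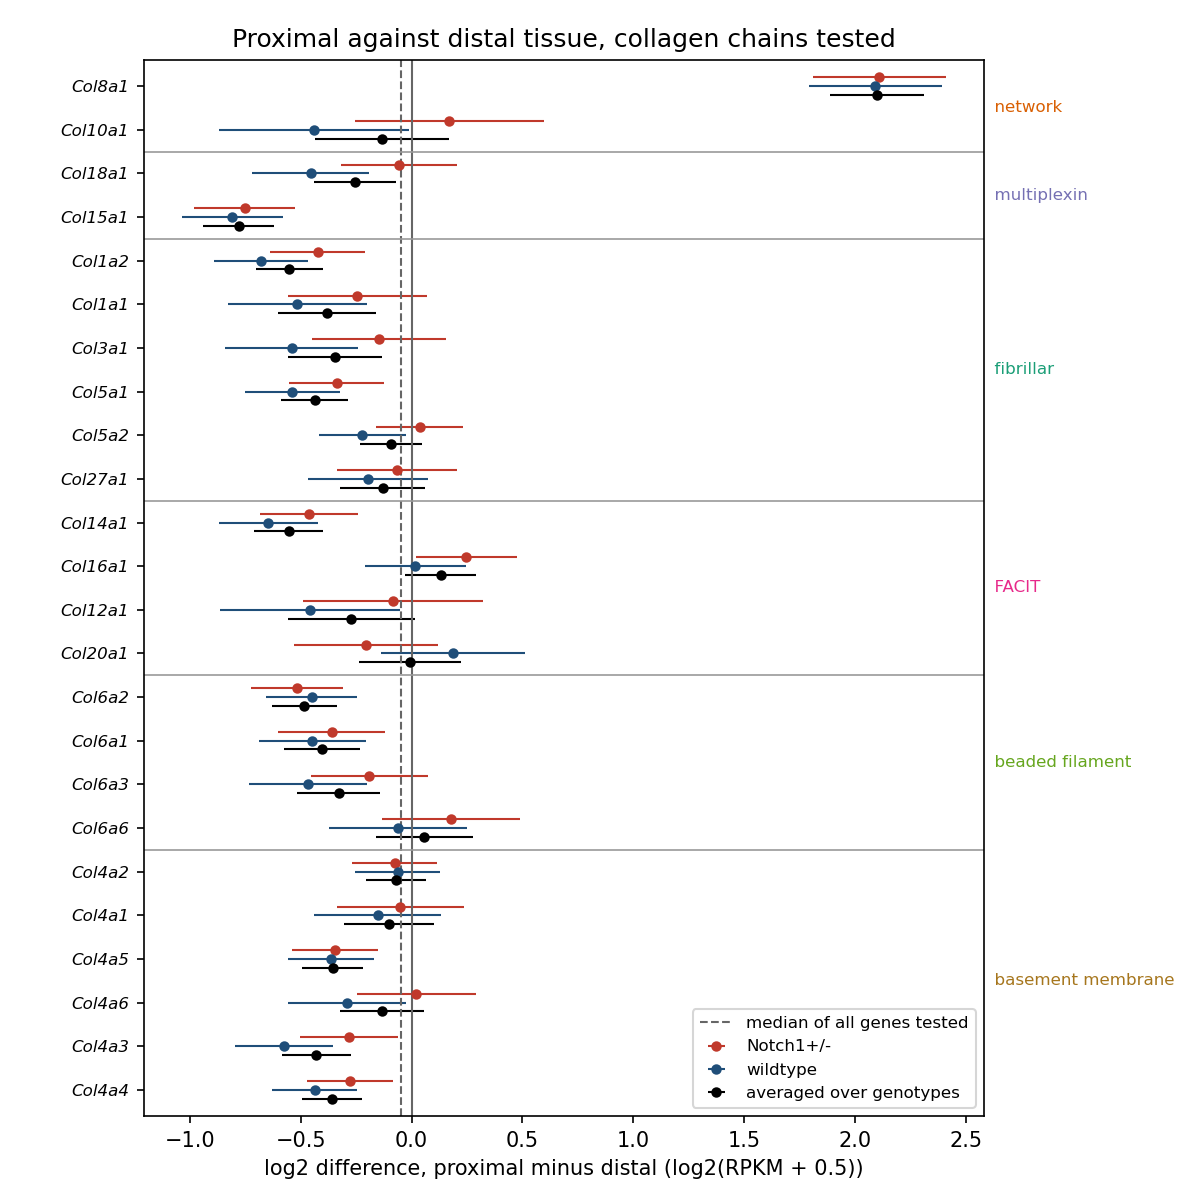
Fitted log2 difference, proximal minus distal, of the 24 collagen chains tested, with its SE, within Notch1+/- mice, within wildtype mice and averaged over genotypes. Col8a1 stands at 2.10 on the right, and 21 of the 24 averaged values lie below 0, with Col15a1 lowest at -0.78.

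Col8a1 encodes the alpha 1 chain of type VIII collagen, a network collagen made by smooth muscle and endothelial cells. The gene (ENSMUSG00000068196) lies on mm10 chr16:57624258-57754737, minus strand. It had 33.8, 38.1 and 25.6 RPKM in Notch1+/- proximal libraries, against 11.0, 7.16 and 4.39 RPKM in Notch1+/- distal libraries. In wildtype mice it had 34.8, 24.4 and 38.3 RPKM in proximal libraries, against 6.49, 9.09 and 6.07 RPKM in distal libraries. Every proximal library was above every distal library, which held with proximal higher for 0.838% of all genes.

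The level of Col8a1 averaged 32.5 ± 6.1 RPKM in proximal and 7.36 ± 2.3 RPKM in distal tissue (SD, n = 6 each), a ratio of 4.41. Within a mouse the proximal sample held 2.68 to 6.31 times the distal level. The averaged log2 difference was 2.10 (SE 0.21, limma adjusted p = 0.000433). It was 2.11 (SE 0.30, limma adjusted p = 0.0126) within Notch1+/- mice, where 0.254% of all genes passed. It was 2.09 (SE 0.30, limma adjusted p = 0.0144) within wildtype mice, where 0.237% passed. Col8a1 was the chain that passed in each genotype alone in this fit. The authors' deposited Tukey comparisons of location gave it false discovery rates of 0.459 in Notch1+/- and 0.357 in wildtype mice. With only the 6 libraries of a genotype in the fit, the adjusted p was 0.0543 in Notch1+/- and 0.0583 in wildtype mice. Leaving out Notch1+/- proximal 1 or 2 or Notch1+/- distal 2 also ended the call in Notch1+/- mice (limma adjusted p = 0.0768, 0.0998 and 0.0507), as did leaving out wildtype proximal 1 or 3 or wildtype distal 1 or 3 in wildtype mice (0.0698, 0.0627, 0.0620 and 0.0827).

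**Figure D3:**
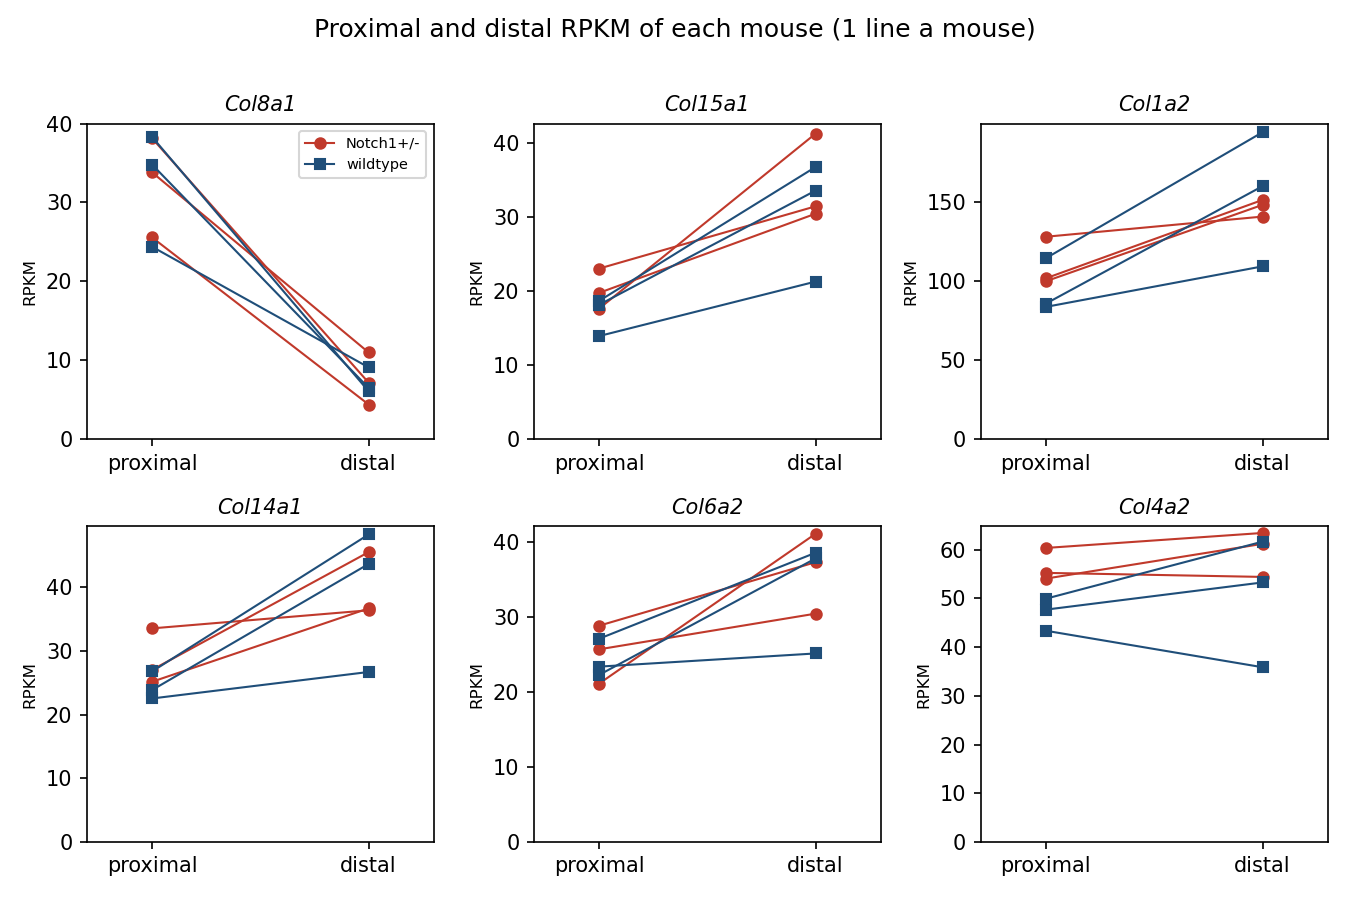
RPKM in the proximal and the distal sample of each mouse, 1 line a mouse, for 6 collagen chains. Lines for Col8a1 run down to the distal sample in all 6 mice, those for Col15a1, Col1a2, Col14a1 and Col6a2 run up in all 6, and Col4a2 is mixed.

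The other network chain, Col10a1 of type X collagen, is known from hypertrophic cartilage. It had 1.0, 1.87 and 0.450 RPKM in Notch1+/- proximal libraries, against 0.739, 1.75 and 0.350 RPKM in Notch1+/- distal libraries. Wildtype libraries had 0.511, 0.861 and 0.256 RPKM in proximal and 1.17, 0.642 and 0.865 RPKM in distal tissue. The groups overlapped throughout, and the averaged log2 difference was -0.14 (SE 0.30). Only 14 to 100 reads per library stood behind it.

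Cell type markers moved with location as well, against 0.775% of all genes called higher and 0.728% called lower in proximal tissue and a median of -0.05 for all genes. Of 15 heart muscle markers, 10 were called higher, with a median log2 difference of 3.02 and a summed level of 289 to 1838 RPKM in proximal and 29.0 to 369 RPKM in distal libraries. Of 7 cartilage markers tested, 5 were called higher (median 1.99), with summed levels of 101 to 236 and 70.3 to 149 RPKM. Of 11 fibroblast markers, 2 were called lower and 8 were fitted lower. Their median of -0.28 stood beside the -0.30 of the collagen chains, while their summed level was 476 to 972 RPKM in proximal and 489 to 766 RPKM in distal libraries. In smooth muscle and in endothelium 1 of 10 markers each was called higher, with medians of -0.01 and 0.27. None was called for the remaining cell types. Macrophage markers were nevertheless fitted higher in 8 of 8 (median 0.72), fat markers in 7 of 8 (0.63) and Schwann cell markers in 3 of 4 (0.62), and mesothelium markers were fitted lower in 7 of 7 (-0.81). None of these markers stood at the replacement value in all libraries. Their part in the collagen differences was not tested.

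Col15a1 was the chain that passed in the other direction. It encodes type XV collagen, a multiplexin that ties basement membranes to the fibrils beneath, and the gene (ENSMUSG00000028339) lies on mm10 chr4:47208161-47313167, plus strand. It had 19.8, 17.6 and 23.1 RPKM in Notch1+/- proximal libraries, against 30.5, 41.3 and 31.5 RPKM in Notch1+/- distal libraries. Wildtype libraries had 13.9, 18.7 and 18.2 RPKM in proximal and 21.3, 36.8 and 33.6 RPKM in distal tissue. The distal sample was the higher in every mouse, and the 2 locations did not overlap within either genotype, which held with distal higher for 5.53% of all genes in Notch1+/- and 11.1% in wildtype mice.

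Col15a1 averaged 18.5 ± 3.0 RPKM in proximal and 32.5 ± 6.8 RPKM in distal tissue (SD, n = 6 each), so that distal tissue held 1.75 times as much. The averaged log2 difference was -0.78 (SE 0.16, limma adjusted p = 0.0320). Within Notch1+/- mice it was -0.75 and within wildtype mice -0.81, and neither passed alone (limma adjusted p = 0.332 and 0.273). The averaged call is close to the threshold. It was lost when any of 11 of the 12 libraries was left out (limma adjusted p = 0.0508 to 0.0941) and held without wildtype distal 1 (0.0116). Without the 2 distal libraries richest in heart muscle RNA the difference was -0.74 (SE 0.18, limma adjusted p = 0.112).

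The related multiplexin Col18a1, whose C-terminal fragment is endostatin, had 53.2, 36.6 and 37.0 RPKM in Notch1+/- proximal libraries, against 41.5, 55.8 and 35.0 RPKM in Notch1+/- distal libraries. Wildtype libraries had 24.1, 31.4 and 26.9 RPKM in proximal and 25.2, 46.2 and 45.7 RPKM in distal tissue. Its locations overlapped, with an averaged log2 difference of -0.26 (SE 0.19, limma adjusted p = 0.701). The ratio of Col15a1 to Col18a1 within a library was 0.554 ± 0.11 in proximal and 0.792 ± 0.069 in distal tissue (SD, n = 6 each). All proximal ratios, up to 0.675, were below all distal ratios, which began at 0.735. This ratio was picked out after its values were seen and was given no test.

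The fibrillar chains averaged 53.5% of the summed collagen RPKM, at 47.3% to 60.6% by library, and none of the 6 tested passed. All 6 were fitted lower in proximal tissue, with log2 differences of -0.55 to -0.09. Col1a2 (ENSMUSG00000029661, mm10 chr6:4504814-4541544, plus strand), the alpha 2 chain of type I collagen, had 128, 102 and 99.7 RPKM in Notch1+/- proximal libraries, against 141, 151 and 148 RPKM in Notch1+/- distal libraries. Wildtype libraries had 83.6, 85.6 and 114 RPKM in proximal and 109, 160 and 194 RPKM in distal tissue. The locations did not overlap in Notch1+/- mice and did in wildtype mice. The averaged log2 difference of Col1a2 was -0.55 (SE 0.15, limma adjusted p = 0.117). It passed after quantile normalization (0.0273) and without wildtype distal 1 (0.0321).

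Its partner Col1a1 averaged 105 ± 25 RPKM in proximal and 139 ± 39 in distal tissue, and Col3a1 77.1 ± 15 and 100 ± 30 RPKM (SD, n = 6 each). Col5a1, the type V chain that helps to start fibrils, averaged 23.4 ± 4.6 RPKM in proximal and 32.0 ± 5.9 RPKM in distal tissue, with a log2 difference of -0.44 (SE 0.15, limma adjusted p = 0.251). Col5a2, its partner, was at 14.7 ± 2.1 and 15.8 ± 2.6 RPKM, a log2 difference of -0.09 (SE 0.14). The ratio of Col5a1 to Col5a2 was 1.59 ± 0.22 in the proximal libraries, against 2.03 ± 0.28 in the distal ones, and the values of the 2 locations overlapped. Col27a1, a fibrillar chain known from cartilage, was low at 1.57 ± 0.35 and 1.78 ± 0.49 RPKM.

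Among the chains too low for the test, Col11a1, Col6a5 and Col5a3 were fitted higher in proximal tissue without the filter. Col19a1 was fitted lower, with a log2 difference of -0.31. Col11a1 encodes a type XI chain, a partner of cartilage fibrils. It had 0.629, 1.02 and 0.447 RPKM in Notch1+/- proximal libraries, against 0.276 RPKM in 1 Notch1+/- distal library and the replacement value in the other two. Wildtype proximal libraries had 0.479, 0.387 and 0.637 RPKM, and all 3 wildtype distal libraries stood at the replacement value. In a fit without the filter its log2 difference was 0.68 (SE 0.17, limma adjusted p = 0.104). The authors' deposited table gives a false discovery rate of 0.0279 for location for Col11a1 and of 0.0114 for Col8a1, the 2 chains of 28 under 0.05, and of 0.0960 for Col15a1. Col5a3, a further type V chain, had 0.348, 0.292 and 0.914 RPKM in Notch1+/- proximal libraries. Notch1+/- distal 2 had 0.181 RPKM, and the other Notch1+/- distal libraries stood at the replacement value. Col5a3 also stood at the replacement value in 2 of 3 wildtype proximal libraries, with 0.445 RPKM in wildtype proximal 3. Wildtype distal libraries had at most 0.237 RPKM. Its log2 difference without the filter was 0.32 (SE 0.20, limma adjusted p = 0.641).

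**Figure D4:**
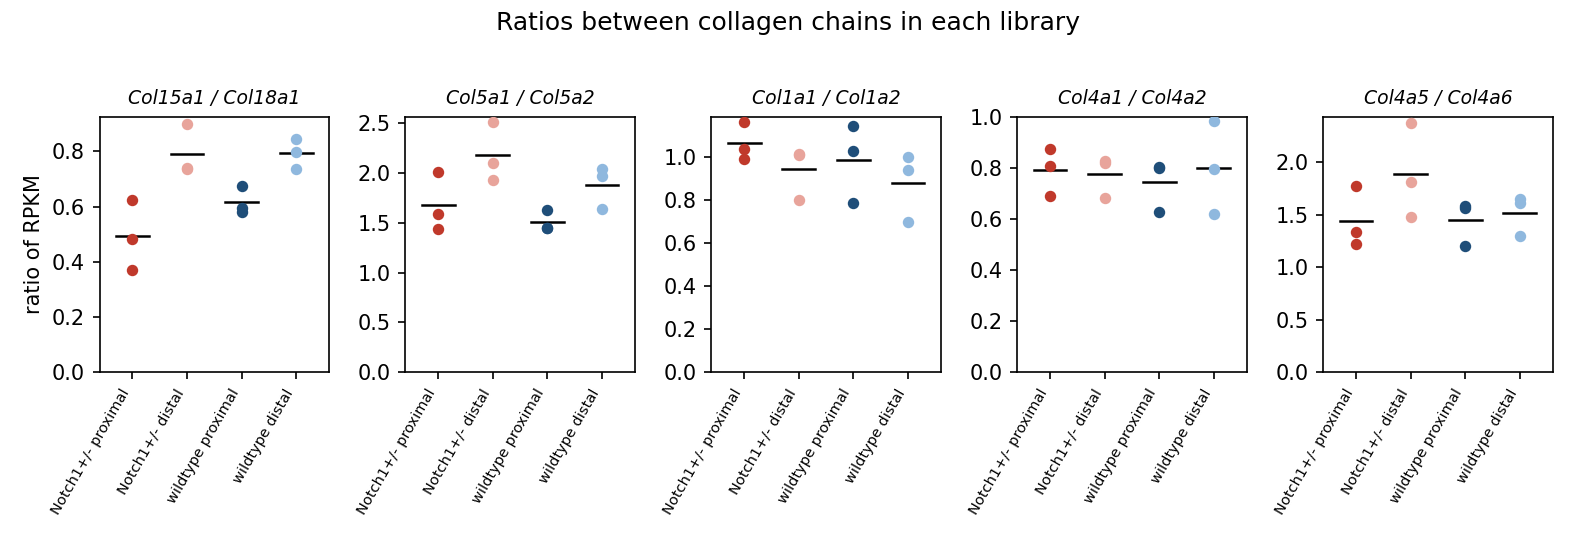
Ratio of RPKM between pairs of collagen chains in each library, with 1 point a library and a line at the group mean, for the 4 groups. Col15a1 over Col18a1 lies at 0.372 to 0.675 in proximal and 0.735 to 0.900 in distal libraries, and the other 4 ratios overlap between locations.

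Of the FACIT chains, Col14a1 had the highest level. It encodes type XIV collagen, which binds fibrils through decorin and limits their lateral fusion. Col14a1 had 33.6, 27.0 and 25.2 RPKM in Notch1+/- proximal libraries, against 36.4, 45.5 and 36.7 RPKM in Notch1+/- distal libraries. Wildtype libraries had 22.5, 26.8 and 23.9 RPKM in proximal and 26.7, 48.3 and 43.7 RPKM in distal tissue. Each mouse was higher distally, with 1 wildtype distal library among the proximal values. The averaged log2 difference was -0.56 (SE 0.16, limma adjusted p = 0.132), and it passed without wildtype distal 1 (0.0262). The other FACIT chains tested, Col16a1, Col12a1 and Col20a1, were at 1.52, 1.13 and 1.03 RPKM over all libraries, with log2 differences of 0.13, -0.27 and -0.01. Col19a1 had 0.333 ± 0.085 RPKM in proximal and 0.549 ± 0.25 RPKM in distal tissue (SD, n = 6 each).

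The 3 main chains of type VI collagen assemble together and were all lower in the proximal fit, without passing. Col6a2 had 28.8, 21.1 and 25.6 RPKM in Notch1+/- proximal libraries, against 37.2, 41.0 and 30.4 RPKM in Notch1+/- distal libraries. Wildtype libraries had 23.3, 22.2 and 27.0 RPKM in proximal and 25.1, 37.7 and 38.5 RPKM in distal tissue. Every mouse was higher distally, and the averaged log2 difference was -0.48 (SE 0.15, limma adjusted p = 0.165; 0.0447 after quantile normalization). Col6a1, its neighbour on chromosome 10, had a log2 difference of -0.40 (SE 0.17, limma adjusted p = 0.383) and Col6a3 one of -0.33 (SE 0.19, limma adjusted p = 0.583). Col6a6, which can take the place of Col6a3, was at 3.61 ± 1.3 RPKM in proximal and 3.33 ± 0.67 RPKM in distal tissue.

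Col6a5, another chain of this kind, was too low for the test. It had 0.258, 1.25 and 0.339 RPKM in Notch1+/- proximal libraries, against 0.229 RPKM in 1 Notch1+/- distal library and the replacement value in the other two. Wildtype proximal libraries had 0.255, 0.377 and 1.48 RPKM, against 0.179 RPKM in 1 wildtype distal library and the replacement value in the other two. All proximal values were above all distal values, as for Col11a1. This held with proximal higher for 0.838% of the 17297 genes tested, which do not include Col6a5 or Col11a1. In a fit without the filter the adjusted p of Col6a5 was 0.397 (limma).

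The 6 type IV genes lie as 3 head-to-head pairs. All 6 were fitted lower in proximal tissue, none was called, and the pairs were not tested against each other. Col4a1 and Col4a2, the chains of the main vascular type IV collagen, are on chromosome 8 with starts 21 bases apart, so that their first exons overlap on opposite strands. Col4a2 had 60.4, 54.1 and 55.3 RPKM in Notch1+/- proximal libraries, against 63.5, 61.2 and 54.4 RPKM in Notch1+/- distal libraries. Wildtype libraries had 43.4, 47.7 and 50.0 RPKM in proximal and 35.9, 53.3 and 61.7 RPKM in distal tissue. The locations overlapped, and the averaged log2 differences were -0.07 (SE 0.14) for Col4a2 and -0.10 (SE 0.20) for Col4a1. The sign for Col4a2 turned to 0.013 without wildtype distal 3. The ratio of Col4a1 to Col4a2 was 0.768 ± 0.091 in proximal and 0.790 ± 0.13 in distal tissue (SD, n = 6 each).

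Col4a3 and Col4a4, known from the kidney glomerulus, have starts 72 bases apart on chromosome 1. Col4a3 averaged 3.76 ± 0.65 RPKM in proximal and 5.27 ± 1.1 RPKM in distal tissue, and Col4a4 averaged 3.08 ± 0.41 and 4.10 ± 0.56 RPKM (SD, n = 6 each). Both were higher distally in all 6 mice, with log2 differences of -0.43 (SE 0.16, limma adjusted p = 0.278) and -0.36 (SE 0.14, limma adjusted p = 0.315). Of the Col4a3 exon length, 5.65% overlaps another gene, and the reads do not tell strands apart.

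Col4a5 and Col4a6, found together in smooth muscle basement membranes, have starts 1309 bases apart on the X chromosome. Col4a5 averaged 17.9 ± 2.1 RPKM in proximal and 23.2 ± 3.8 RPKM in distal tissue and was higher distally in all 6 mice, with a log2 difference of -0.36 (SE 0.14, limma adjusted p = 0.328). Col4a6 averaged 12.7 ± 2.8 and 14.0 ± 3.3 RPKM and was higher distally in 3 of 6 mice, with a log2 difference of -0.13 (SE 0.19, limma adjusted p = 0.880).

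Summed over all 28 chains, collagen RNA came to 630 ± 94 RPKM in proximal and 789 ± 150 RPKM in distal tissue (SD, n = 6 each), and the libraries overlapped, at 490 to 764 and 518 to 968 RPKM. Fibrillar chains took 51.4 ± 3.0% of it in proximal and 55.5 ± 3.4% in distal tissue, and basement membrane chains 20.6 ± 1.4% and 18.5 ± 1.1%. The network class, nearly all Col8a1, took 5.37 ± 1.2% in proximal and 1.08 ± 0.37% in distal tissue, with no overlap between libraries (3.96% to 7.20% and 0.635% to 1.52%). Multiplexins took 8.43% and 9.38%, beaded filament chains 9.33% and 9.89%, and FACIT chains 4.86% and 5.61%. These shares depend on gene length. The authors divided Col1a2 by 12426 bases, the length of all its exons together, while its longest principal transcript in GENCODE M21 has 5348. Per principal transcript, the ratio of Col1a1 to Col1a2 was 0.461 ± 0.067 over the 12 libraries, against 0.968 ± 0.14 as deposited.

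**Figure D5:**
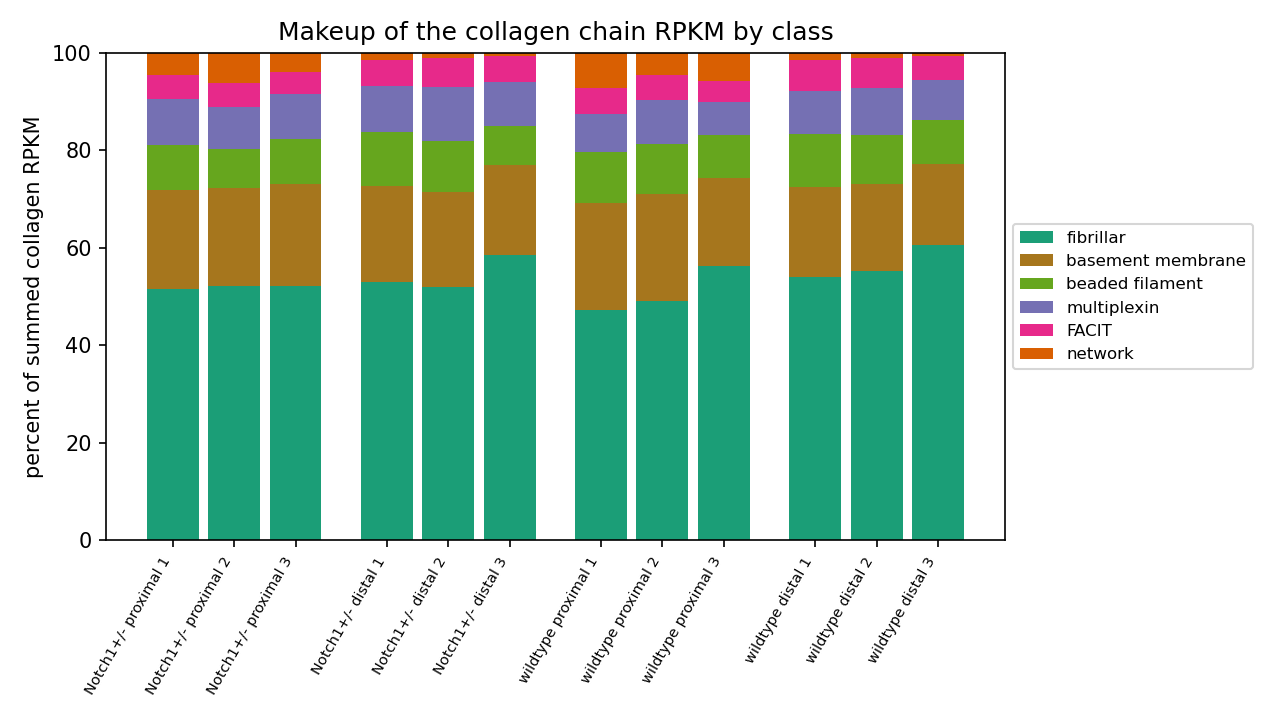
Share of the summed collagen RPKM taken by each class, in percent, with 1 bar a library and the bars grouped by genotype and location. The network class at the top of the bars takes 3.96% to 7.20% in proximal and 0.635% to 1.52% in distal libraries.

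No collagen chain was called between genotypes. In proximal tissue 0 of 24 chains and 0 of all 17297 genes (0%) passed in limma, while 1 chain and 561 genes (3.24%) had an unadjusted p under 0.05. In distal tissue 0 of 24 chains and 0 of all genes (0%) passed, with 0 chains and 524 genes (3.03%) at an unadjusted p under 0.05. The authors' deposited table has 0 of 28 chains at a false discovery rate under 0.05 for genotype, for the interaction or in any Tukey comparison. In proximal tissue 23 of 24 chains were fitted higher in libraries labelled Notch1+/- than in wildtype, against 68.4% of all genes. The median was 0.25, against 0.11 for all genes. After median-of-ratios scaling or quantile normalization, which bring the median of all genes to 0.00, 20 of 24 were fitted higher.

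The largest proximal genotype difference was that of Col18a1, whose values are given above. Every proximal library labelled Notch1+/- was above every wildtype one, with a log2 difference of 0.60 (SE 0.26, unadjusted p = 0.0406 and adjusted p = 0.999 in limma). Col10a1 followed at 0.57 (SE 0.43), with overlapping groups. Col5a1 had 29.3, 22.3 and 28.5 RPKM in proximal libraries labelled Notch1+/-, against 17.4, 22.0 and 21.2 RPKM in wildtype proximal libraries, a log2 difference of 0.39 (SE 0.22, limma adjusted p = 0.999). The groups did not overlap for 4 chains, Col18a1, Col5a1, Col4a2 and Col4a3, all higher in libraries labelled Notch1+/-, against 7.78% of all genes in that direction. Summed collagen was 687 ± 67 RPKM in Notch1+/- proximal and 573 ± 89 RPKM in wildtype proximal tissue (SD, n = 3 each). These sums overlapped, at 640 to 764 and 490 to 667 RPKM, and were given no test.

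In distal tissue 15 of 24 chains were fitted higher in libraries labelled Notch1+/-, against 43% of all genes, and this count turned to 7 when RPKM was rescaled without mitochondrially encoded genes. The largest differences were 0.28 for Col4a2 (SE 0.19), 0.25 for Col4a1 (SE 0.29) and 0.24 for Col20a1 (SE 0.32). Col4a1 had 43.4, 50.4 and 45.0 RPKM in distal libraries labelled Notch1+/-, against 22.3, 52.5 and 49.2 RPKM in wildtype distal libraries. Its difference rests on wildtype distal 1, without which it was -0.14. Col20a1, a FACIT chain of low level, had 0.808, 1.66 and 1.02 RPKM against 0.807, 0.634 and 1.25 RPKM in the same groups. The distal genotype groups were apart for none of the 24 chains, against 6.37% of all genes.

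The difference between locations was not shown to depend on genotype for any chain. The interaction was called for 0 of 24 chains and 0 of all genes (0%), with 0 chains and 507 genes (2.93%) at an unadjusted p under 0.05 in limma. For Col8a1 it was 0.02 (SE 0.42), for Col15a1 0.06 (SE 0.32) and for Col18a1 0.40 (SE 0.37) on the log2 scale. With these errors, differences of this size between genotypes could not be told from none.

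Of the genes that fold, trim, crosslink and bind collagen, P4ha3 was higher and Pcolce2 lower in proximal tissue. Of the procollagen folding and modification genes 22 were listed and 21 tested, and 1 rose and 0 fell in proximal tissue, against 1.5% of all genes called. Fitted values were lower for 19 of the 21, against 58.5% of all genes. The median log2 difference was -0.22, against -0.05 for all genes. P4ha3 is a catalytic subunit of prolyl 4-hydroxylase, which stabilises the collagen helix. It had 4.27, 2.40 and 3.70 RPKM in Notch1+/- proximal libraries, against 0.336, 0.851 and 1.33 RPKM in Notch1+/- distal libraries. Wildtype libraries had 2.74, 3.15 and 2.63 RPKM in proximal and 0.568, 2.75 and 0.644 RPKM in distal tissue. The locations overlapped through wildtype distal 2 alone. The averaged log2 difference was 1.34 (SE 0.29, limma adjusted p = 0.0403), and leaving out any of 10 of the 12 libraries ended the call (0.0626 to 0.111).

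Of the procollagen processing genes 6 were tested, and 0 rose and 1 fell, against 0.775% and 0.728% of all genes. Of the 6, 5 were fitted lower, against 58.5% of all genes, with a median of -0.21, against -0.05. Pcolce2, an enhancer of the enzyme that removes the procollagen C-propeptide, had 3.96, 4.01 and 5.27 RPKM in Notch1+/- proximal libraries, against 5.63, 8.90 and 6.71 RPKM in Notch1+/- distal libraries. Wildtype libraries had 3.69, 3.29 and 4.83 RPKM in proximal and 7.74, 9.20 and 8.81 RPKM in distal tissue. All proximal values were below all distal values, which held with distal higher for 1.02% of all genes. Its averaged log2 difference was -0.83 (SE 0.15, limma adjusted p = 0.0155; 0.0550 without Notch1+/- proximal 2). Among 4 crosslinking enzymes and 7 collagen receptors tested none passed, against 1.5% of all genes. Their medians were -0.38 and -0.18, against -0.05 for all genes. No gene of the 4 lists was called between genotypes, where 0% of all genes passed.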

How the data were processed

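RNA of 12 aortic samples was amplified with a kit that does not mark strand and sequenced as 50-base read pairs, per the labels' protocols. The submitters' processing notes name TopHat2 2.1.0, Bowtie2, R 3.2.2 and the build mm10. How reads were counted is not given in the sources used here. RPKM per gene were deposited by the authors, with values under each library's detection threshold replaced by 0.158 RPKM, which holds for 9.78% of values. The authors' deposited p-values and false discovery rates and fold ratios were read for the collagen genes only. RPKM steps matched whole reads for 99.6% of 1000 genes drawn at a tolerance of 0.0001, which gave the read numbers behind each chain; intervals were not computed. A total of 24 per-sample columns were not used.

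Log2(RPKM + 0.5) was fitted, for the 17297 genes that reached 1 RPKM in 3 or more libraries, with limma 3.58.1 (R 4.3.3, eBayes with trend) as 4 group means with 6 contrasts, without a replicate block. P-values are 2-sided, adjusted by Benjamini-Hochberg over all genes tested, and called under 0.05. The fit was tested on simulated data. The authors' sample sheet gives each animal a number, and in 6 of 6 animals the proximal and distal libraries carry the same replicate number, so the numbers pair the samples. The wildtype mice are littermates, per the series' design text, but which animals share a litter is not given. Alternatives were 2 other pseudocounts, 2 filters, 3 scalings, a block for mouse, the libraries of a contrast alone and leaving out each library.

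The members, lists and tests were chosen with earlier results of these data known. Values in every library are given for chains called in a contrast, the highest chain of each class, chains whose locations do not overlap, and the 3 largest genotype differences at each location; other chains were summarised, and pathway genes were named where called.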

Additional observations from a re-analysis of the deposited data

How the results depend on the processing

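The averaged location comparison called 2 chains and kept Col8a1 under all alternatives run, with log2 differences of 1.94 to 2.34. After quantile normalization 4 chains were called and without the 2 distal libraries richest in heart muscle RNA, an alternative chosen after seeing the data, 1 chain; leaving out a library gave 1 to 4. Within Notch1+/- and within wildtype mice 0 chains were called with only the libraries of the contrast, and 0 to 1 when a library was left out. These fits hold fewer samples, and the cause of the lost calls was not tested. The pathway lists had 2 called genes, 1 with a pseudocount of 0.1, and 0 to 2 when a library was left out. Genotype and interaction counts were 0 throughout. The replicate block for mouse, with the pairing taken from the animal numbers, called 2 chains averaged over genotypes and 1 in each genotype, and it changed no other call. The fibrillar share of collagen RPKM, 53.5%, was 60.8% per principal transcript length, a setting chosen after seeing the data; only the lengths differ between these values. Signs turned for the distal genotype difference of Col4a1, to -0.14 without wildtype distal 1 (0.47 at most when another library was left out), and for the location difference of Col4a2, to 0.013 without wildtype distal 3 (-0.18 at the other end), neither of them called. Depth limits Col10a1, Col20a1 and the 4 chains too low for the test.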
